A study of Mus musculus with 8 samples.

Results

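Ccl1, Ccl3, Ccl4, Ccl5 and Xcl1, chemokines that T cells make, were described in bone marrow T cells of mice with and without the leukaemia fusion gene Runx1::Runx1t1. They were taken by gene symbol from the feature lists of the gene expression libraries, where each symbol had 1 row, and were 5 of 32285 genes. All mice were C57BL/6, carried 1 knock-in allele (Runx1Runx1t1/+) and received 5 mg/kg Poly(I:C) intraperitoneally every other day, 4 times in all. The Runx1::Runx1t1 group also carried Mx1-Cre, an interferon-inducible Cre that is not specific to T cells, and the control group, labelled WT, was littermates without Cre. The marrow was taken 4 weeks after induction, and the animals' age is not used here. Each group had 2 pools of 2 mice, so that the pool was the replicate and the mice within a pool could not be told apart. Living CD3+ cells without the mCherry reporter were sorted after negative enrichment of T cells, so the sorted cells lacked the fusion reporter in both groups, and RNA and T cell receptor (TCR) sequences were read from the same droplets.

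Chemokines are small secreted proteins that draw cells towards their source by binding G protein-coupled receptors. Ccl3 (MIP-1α), Ccl4 (MIP-1β) and Ccl5 (RANTES) are inflammatory CC chemokines. Ccr1 is among the receptors of Ccl3 and Ccl5, and Ccr3 among those of Ccl5. Activated and memory Cd8 T cells are a known source of all 3, and Ccl5 message is stored in memory cells before restimulation. Xcl1 (lymphotactin) is a C chemokine that binds Xcr1 on cross-presenting dendritic cells and is made by natural killer (NK) cells, NKT cells and activated Cd8 T cells. Ccl1 (TCA-3) is the ligand of Ccr8, a receptor of type 2 helper and regulatory T cells, and is made by activated T cells and mast cells.

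In GRCm38 coordinates, Ccl5 lay at chr11:83525778-83530518 on the minus strand, Ccl3 at chr11:83647844-83649355 on the minus strand and Ccl4 at chr11:83662584-83664683 on the plus strand. The start sites of Ccl3 and Ccl4 were 13229 bp apart and pointed away from each other, with no coding gene between them. Ccl1 lay on the minus strand at chr11:82176657-82305690, and Xcl1 on the minus strand of another chromosome, at chr1:164931644-164935527. Xcl1 overlapped Gm20743 on the opposite strand.

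The 250 bases before the start of 3 of the 5 genes are shown because Runx, NFAT and AP-1 sites are classical elements of T cell cytokine promoters. They are RefSeq sequences of GRCm38.p6, read 5′ to 3′ on the gene's own strand. Capitals mark matches, on either strand, to the letters TGTGGT of Runx factors, to GGAAAA of NFAT, to TGANTCA of AP-1, and to the TATA-like words TATAAA and, with overlap allowed, ATAAAA.
Ccl3: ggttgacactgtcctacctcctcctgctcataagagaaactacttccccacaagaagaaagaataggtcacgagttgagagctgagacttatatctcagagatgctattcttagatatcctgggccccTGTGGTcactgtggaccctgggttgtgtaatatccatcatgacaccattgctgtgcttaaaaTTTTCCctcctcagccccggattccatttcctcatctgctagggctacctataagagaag
Xcl1: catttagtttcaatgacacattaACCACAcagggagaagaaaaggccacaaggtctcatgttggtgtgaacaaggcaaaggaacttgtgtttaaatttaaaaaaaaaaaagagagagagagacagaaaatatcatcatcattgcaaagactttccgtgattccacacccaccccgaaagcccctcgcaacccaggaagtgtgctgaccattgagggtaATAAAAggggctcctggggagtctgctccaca
Ccl1: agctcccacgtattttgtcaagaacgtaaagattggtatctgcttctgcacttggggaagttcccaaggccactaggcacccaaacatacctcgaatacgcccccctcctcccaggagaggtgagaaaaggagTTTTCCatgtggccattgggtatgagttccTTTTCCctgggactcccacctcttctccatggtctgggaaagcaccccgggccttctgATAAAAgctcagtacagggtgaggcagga

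These windows were chr11:83649379-83649628 for Ccl3, chr1:164935523-164935772 for Xcl1 and chr11:82179813-82180062 for Ccl1, all on the minus strand. The Ccl1 window lies before the start of the RefSeq transcript, which falls inside the longer gene span of GENCODE given above, so that the annotations start this gene at different places. The Runx letters occurred in the Ccl3 window 122 bases before the start and, on the other strand, in the Xcl1 window 227 bases before it, and 14% of 32851 windows of this length held such a match. The NFAT letters, on the other strand, occurred in the Ccl3 window 60 bases before the start and in the Ccl1 window 117 and 87 bases before it, and 20.4% of windows held a match. ATAAAA stood 32 bases before the Xcl1 start and 29 bases before the Ccl1 start, and was in 17.0% of windows. The AP-1 letters, in 6.75% of windows, and TATAAA, in 12.4%, had no match in these 3. The matches are descriptions of letters, and none was tested for binding.

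The 4 libraries held 90958101 to 102883449 unique molecular identifiers (UMIs, each counting 1 captured RNA molecule) in 13633 to 14664 barcodes, with a median of 6239 to 6368 UMIs a barcode. After the filters, 52923 cells remained. T cells, with a UMI of Cd3d, Cd3e or Cd3g, were divided by co-receptor message into 26800 Cd8, 7257 Cd4 and 14081 co-receptor-negative cells. In the order Runx1::Runx1t1 replicate 1, replicate 2, control replicate 1, replicate 2, which is kept for every list of 4 values below, the counts were 6833, 7174, 6005 and 6788 Cd8 T cells. The counts of Cd4 T cells were 2590, 2426, 1162 and 1079, and those of co-receptor-negative T cells 3005, 1914, 4716 and 4446. The median depth of the classes was 7035, 5112 and 5603 UMIs. The Cd4 gate was the thinner one, since 42.9% of its cells rested on a single Cd4 UMI against 10.1% of Cd8 T cells on a single Cd8a or Cd8b1 UMI. Cells with UMIs of both co-receptors, 1721 in all, were left out of the classes. Pairs of libraries shared 226 to 263 barcodes, and none of these carried the same TCR in both.

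Free RNA in the droplets sets a floor under any share of cells with a UMI. A pair of barcode sets is given as a reference for it, and neither was free of these genes. B cell barcodes, 15 to 61 a library with median depths of 4607 to 15835 UMIs, had a Ccl5 UMI in 60.0%, 80.0%, 26.2% and 41.2% of cases, at 0.328 to 1.27 Ccl5 UMIs a barcode, and an Xcl1 UMI in 0 to 8% and no Ccl1. Their Ccl3 was 27.7, 0, 336 and 314 CPM and their Ccl4 11.9, 335, 269 and 394 CPM, so for these 2 genes the B cell barcodes set no floor. T cells with naive markers, which had a UMI of both Ccr7 and Lef1 and none of Cd44, numbered 2552 to 3405 a pool, with median depths of 6436 to 7380 UMIs. A UMI was found in 64.8%, 77.3%, 46.9% and 48.1% of them for Ccl5, in the pool order given above, and in 2.88% to 5.72% for Ccl3, 10.2% to 18.7% for Ccl4, 14.1% to 17.9% for Xcl1 and 0 to 0.196% for Ccl1. These shares are a reference level of little differentiated T cells and not a floor of free RNA alone. The naive-marker T cells had 10.02 to 13.7 Ccl5 UMIs a cell, and 10 or more UMIs of Ccl4 in 1.19% to 2.04% and of Xcl1 in 1.56% to 3.10%, so that a share at or below theirs is not shown to be free RNA. They were also deeper than Cd4 T cells, whose medians were 5122, 5498, 4652 and 4591 UMIs. For Ccl5, whose single UMIs were in many cells of every kind, the share of cells with at least 10 UMIs is given as well.

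RNA of other cell types differed between the groups. In co-receptor-negative T cells the summed level of 8 neutrophil and monocyte markers, all detected, was 62.8, 136, 1922 and 586 CPM (UMIs of the genes scaled to the same UMI total for every pool and class), and that of 5 mast cell and basophil markers was 224, 485, 3.87 and 9.70 CPM, with Fcer1a and Ms4a2 at 0 in control replicate 2. In Cd8 T cells the same sums were 23.6, 28.2, 210 and 88.0 CPM and 55.2, 57.9, 1.64 and 2.74 CPM. In Cd4 T cells they were 66.8, 11.8, 113 and 64.1 CPM and 74.2, 54.7, 3.0 and 4.07 CPM. Both cell types are known sources of Ccl3 and Ccl4. The comparisons of classes, of the groups within whole classes and of group by class were also run without cells that had 3 or more UMIs of these markers, which removed 0.776% to 5.00% of a class in a pool. This setting was added after the data were seen, and its values are given where it changed a call.

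The 5 genes were first compared between T cell classes, over sums of UMIs per pool and class with the pool as a block. Xcl1 was the gene that set co-receptor-negative T cells apart. Its level was 854, 805, 1021 and 1288 CPM in these cells, 245, 265, 306 and 479 CPM in Cd8 T cells and 217, 159, 275 and 485 CPM in Cd4 T cells. Every pool had more Xcl1 in co-receptor-negative T cells than in its other classes. By edgeR's quasi-likelihood test, Xcl1 was higher in co-receptor-negative than in Cd8 T cells by 1.46 ± 0.11 (log2, SE; adjusted p = 1.72e-05), a comparison in which 33.0% of the tested genes were called and 1 of the 5 chemokines. It was higher than in Cd4 T cells by 1.99 ± 0.11 (edgeR adjusted p = 4.63e-06), where 29.8% of genes and 2 of the 5 were called. Neither difference lost its call under any alternative that was run, those with 1 pool left out included. No alternative divided the class by Klrb1c, a receptor gene of NK and NKT cells. The Xcl1 levels with and without Klrb1c, given below, differed widely.

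Between Cd8 and Cd4 T cells 2 of the 5 chemokines were called, where 44.8% of all 12821 tested genes were, so that this count is near that of genes in general. Xcl1 was higher in Cd8 T cells by 0.53 ± 0.11 (log2, SE; edgeR adjusted p = 0.00262), yet the pools did not agree on it at face value, since control replicate 2 had 479 CPM in Cd8 and 485 CPM in Cd4 T cells. The call was lost without the pool block (0.48, adjusted p = 0.284) and among cells of at least 5000 UMIs (0.30, adjusted p = 0.123). Ccl5 was 0.98 ± 0.47 higher in Cd8 T cells (edgeR adjusted p = 0.116) and Ccl4 1.29 ± 0.54 higher (adjusted p = 0.0789), and neither passed the test. Both passed it without Runx1::Runx1t1 replicate 2 (1.13, adjusted p = 0.0469, and 1.55, adjusted p = 0.0339) and when each clonotype was counted once (1.22, adjusted p = 0.00233, and 1.61, adjusted p = 0.00229). The estimate for Ccl3 was 0.15 ± 0.58 (adjusted p = 0.867).

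Ccl5 ran from 1774 to 15432 CPM over the 12 sets of pool and class. Cd8 T cells had 9005, 15432, 4507 and 4680 CPM, Cd4 T cells 8475, 10535, 1774 and 1804 CPM and co-receptor-negative T cells 6293, 4767, 7280 and 6429 CPM. By group means the order was Cd8 of the Runx1::Runx1t1 group (12219 ± 4545 CPM, SD, n = 2), Cd4 of that group (9505 ± 1457), co-receptor-negative of the control group (6854 ± 602), co-receptor-negative of the Runx1::Runx1t1 group (5530 ± 1079), Cd8 of the control group (4594 ± 123) and Cd4 of the control group (1789 ± 21.3). Of the neighbours in this order only the first pair overlapped. The co-receptor-negative cells, lowest of the Runx1::Runx1t1 classes, were thus the highest of the control classes.

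Ccl3 and Ccl4 had a similar order. Ccl3 was 98.8, 283, 49.6 and 50.4 CPM in Cd8 T cells, 183, 307, 38.7 and 12.4 CPM in Cd4 T cells and 58.2, 73.1, 91.1 and 73.6 CPM in co-receptor-negative T cells. Its highest means were in Cd4 (245 ± 87.7 CPM, SD, n = 2) and Cd8 T cells (191 ± 130 CPM) of the Runx1::Runx1t1 group, which overlapped. They were followed without overlap by co-receptor-negative T cells of the control (82.3 ± 12.4) and Runx1::Runx1t1 groups (65.7 ± 10.6), and by Cd8 (50.02 ± 0.574) and Cd4 T cells (25.5 ± 18.6) of the control group. Ccl4 was 622, 1143, 249.8 and 310.4 CPM in Cd8 T cells, 502, 721, 71.8 and 50.8 CPM in Cd4 T cells and 319.9, 279.7, 287 and 312 CPM in co-receptor-negative T cells. Cd8 (882 ± 368 CPM) and Cd4 T cells (611 ± 155 CPM) of the Runx1::Runx1t1 group overlapped at the top. Co-receptor-negative cells of either group (299.8 ± 28.4 and 299.5 ± 17.6 CPM) and control Cd8 T cells (280.1 ± 42.9 CPM) overlapped with each other, and control Cd4 T cells were lowest (61.3 ± 14.9 CPM).

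Xcl1 had its highest mean in co-receptor-negative T cells of the control group (1154 ± 189 CPM, SD, n = 2), followed by those of the Runx1::Runx1t1 group (830 ± 34.9 CPM). Control Cd8 (392.5 ± 123 CPM) and control Cd4 T cells (379.9 ± 148 CPM) came next and overlapped. Cd8 (255 ± 14.4 CPM) and Cd4 T cells (188 ± 40.9 CPM) of the Runx1::Runx1t1 group were lowest and did not overlap. Ccl1 was rare outside Cd4 T cells of the Runx1::Runx1t1 group and is described last.

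**Figure D1:**
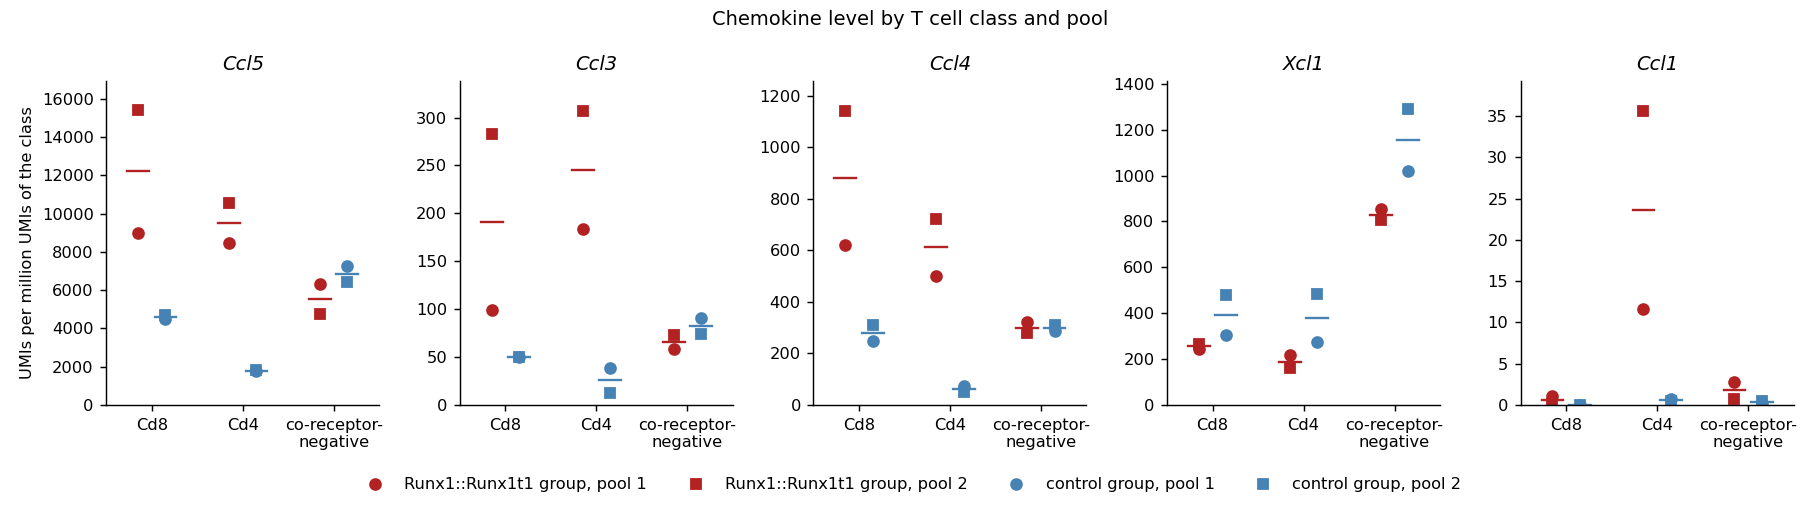
Level of each chemokine in CPM of its T cell class, 1 panel a gene; points are pools, bars are group means of 2 pools. Ccl5 of Cd8 and Cd4 T cells lies above the control pools in both Runx1::Runx1t1 pools, Xcl1 is highest in co-receptor-negative T cells of every pool, and Ccl1 stands out in Cd4 T cells of the Runx1::Runx1t1 group (11.6 and 35.6 CPM).

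A level can differ by the share of cells with message or by the message in each such cell, and for these genes both varied. Ccl5 UMIs were found in 83.4%, 92.2%, 65.1% and 72.7% of Cd8 T cells, 77.6%, 87.7%, 50.4% and 56.6% of Cd4 T cells and 80.3%, 85.0%, 83.3% and 82.3% of co-receptor-negative T cells. All lay above the naive-marker T cells of their own pool, control replicate 1 of Cd4 T cells (50.4% against 46.9%) by little. At least 10 Ccl5 UMIs were found in 58.8%, 67.3%, 44.0% and 53.7% of Cd8, 43.2%, 50.5%, 17.5% and 22.8% of Cd4 and 45.8%, 36.4%, 65.3% and 64.3% of co-receptor-negative T cells. On this measure the group order of the co-receptor-negative cells was the reverse of that of the others.

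The positive cells themselves differed more. The median Ccl5 count of a positive Cd8 T cell was 48, 67, 33 and 38 UMIs, and that of a positive Cd4 T cell 15, 20, 3 and 5. Positive co-receptor-negative T cells had medians of 16, 5, 48 and 43. At least 200 Ccl5 UMIs were found in 11.05%, 27.6%, 1.45% and 0.766% of Cd8 T cells, and in 7.37%, 10.7%, 0.258% and 0.0927% of Cd4 T cells. In co-receptor-negative T cells they were found in 1.86%, 1.57%, 0.318% and 0.225%, so at this cut the group order was that of the other classes. The control pools thus had few cells in the upper tail, and the single highest cell, a Cd8 T cell of Runx1::Runx1t1 replicate 2, had 1347 Ccl5 UMIs.

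**Figure D2:**
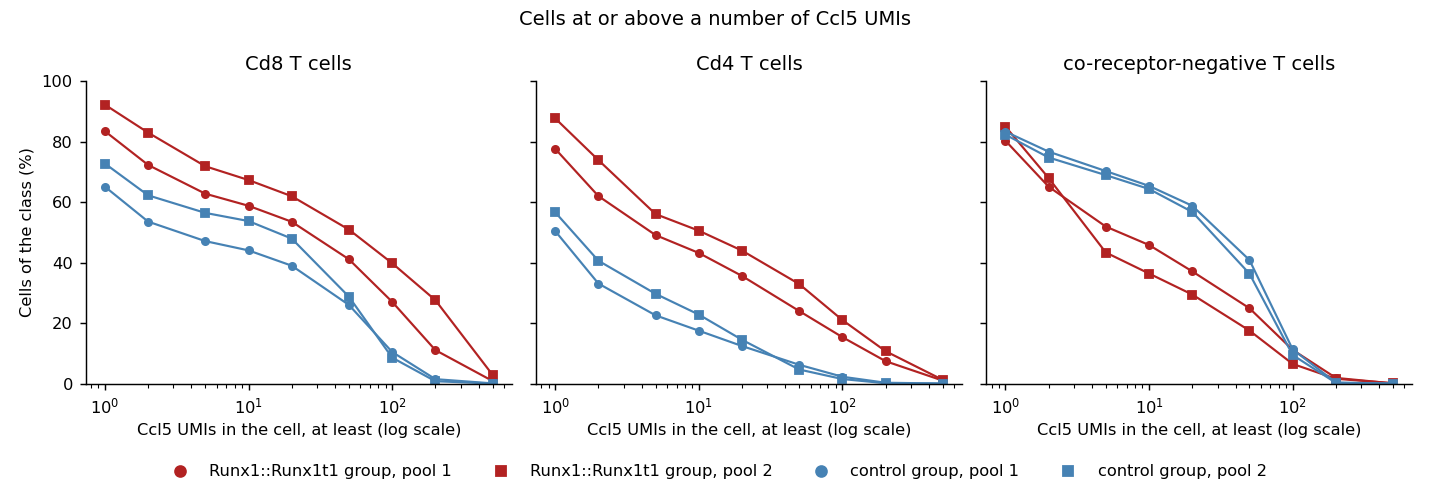
Percent of cells (y axis) with at least the number of Ccl5 UMIs on the x axis (log scale), 1 panel a T cell class and 1 line a pool. The lines of the Runx1::Runx1t1 pools run above the control pools in Cd8 and Cd4 T cells, and at 10 UMIs they run below them in co-receptor-negative T cells (45.8% and 36.4% against 65.3% and 64.3%). At 200 UMIs they run above the control pools in that class too (1.86% and 1.57% against 0.318% and 0.225%).

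Mean UMIs per positive cell of Ccl4 were 11.1, 14.9, 6.54 and 6.1 in Cd8, 13.1, 13.4, 5.19 and 3.42 in Cd4 and 7.18, 5.82, 5.63 and 5.75 in co-receptor-negative T cells. Those of Ccl3 were 4.39, 6.1, 3.43 and 3.30 in Cd8, 7.98, 9.23, 5.66 and 2.26 in Cd4 and 3.41, 3.39, 3.27 and 3.10 in co-receptor-negative T cells. For both genes these means were higher in the Runx1::Runx1t1 pools in every class. The margin was narrow in co-receptor-negative cells, where the difference changed sign with each clonotype counted once (-0.0613 UMIs for Ccl3 and -0.209 for Ccl4). Medians differed less. Those of Ccl3 were 2, 3, 2 and 2 in Cd8 T cells, so that the groups overlapped, and 3, 2, 1 and 1 in Cd4 T cells. Those of Ccl4 were 4, 8, 3 and 3 in Cd8 and 3, 4, 1 and 1 in Cd4 T cells. For Xcl1 the values were 6.74, 8.16, 6.83 and 8.24 in Cd8, 8.18, 7.45, 7.21 and 9.95 in Cd4 and 11.4, 13.9, 9.25 and 12 in co-receptor-negative T cells, and the groups overlapped in all 3 classes. An exact two-sided permutation test of 2 pools against 2 cannot go below p = 0.333, which is the value of every comparison of pools that do not overlap.

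Message of Ccl3, and of Ccl4 in Cd4 T cells, was concentrated in few cells. The 1% of cells with the most UMIs held 23.7% to 42.3% of the Ccl3 of Cd8 T cells and 47.8% to 84.1% of that of Cd4 T cells. For Ccl4 the share was 39.1% to 73.5% in Cd4 T cells and 19.8%, 13.9%, 28.8% and 22.6% in Cd8 T cells. The values were like those of Ccl3 in Cd8 T cells for Ccl4 in co-receptor-negative (24.6% to 36.4%) and Xcl1 in Cd4 T cells (23.1% to 46.5%). For Ccl5 it was 4.51% to 18.0% over the pools and classes, which overlaps the values of Ccl4 in Cd8 T cells.

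Clone size was read from the TCR: cells of 1 pool with the same nucleotide sequence of the alpha and beta junctions formed a clonotype, and clonotypes of 2 or more cells were called expanded. Cells of 1 clonotype share an ancestor and are not replicates, and sums per pool were compared with the pool as a block. Ccl3, Ccl4 and Ccl5 were all higher in expanded Cd8 T cells. By edgeR's quasi-likelihood test Ccl3 was higher by 2.81 ± 0.28 (log2, SE; adjusted p = 0.00433), Ccl4 by 2.53 ± 0.18 (adjusted p = 0.00245) and Ccl5 by 2.44 ± 0.29 (adjusted p = 0.00671). These were 3 of the 4 chemokines tested, where 23.1% of genes were called and 11.5% higher, and Ccl1 had too few UMIs to be tested. The call for Ccl5 was lost without Runx1::Runx1t1 replicate 1 (2.33, adjusted p = 0.0632). Xcl1 was 0.82 lower (log2 fold change -0.82 ± 0.50, edgeR adjusted p = 0.275) and did not pass.

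The share of Cd8 T cells with Ccl4 was higher at every size of expanded clone than in single cells, in all pools. In Runx1::Runx1t1 replicate 1 it was 33.6% of 4149 cells that were single in their clonotype, 73.2% of cells in clones of 2 to 4, 88.1% in clones of 5 to 19 and 91.6% of 632 cells in clones of 20 or more. In Runx1::Runx1t1 replicate 2 these shares were 38.3%, 79.8%, 93.9% and 97.8%, the last of 1949 cells. A single clonotype held 1091 of those 1949 cells, so the values of this pool at that size are largely those of that clone. In control replicate 1, which had no Cd8 clone of 20 cells, they were 25.4%, 59.3% and 81.2%. In control replicate 2 they were 32.0%, 74.7%, 83.2% and 80.4%, the last of 92 cells. Ccl4 was therefore in most cells of clones of 5 or more in both groups.

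In expanded clones of every size, Ccl3 shares were higher in both Runx1::Runx1t1 pools than in the control pools that had such clones. At the largest size this was control replicate 2 alone. Among single cells Ccl3 was more frequent by little (9.76% against 9.31% in the nearest pools). From single cells to the largest clones its shares were 9.76%, 35.4%, 45.2% and 49.8% in Runx1::Runx1t1 replicate 1 and 13.1%, 57.9%, 69.2% and 75.0% in replicate 2. In control replicate 1 they were 9.27%, 23.8% and 37.0%, and in control replicate 2 9.31%, 23.0%, 29.5% and 14.1%. The share with at least 10 Ccl5 UMIs was 42.1% to 49.0% of single cells and 97.0% to 100% of cells in clones of 5 or more in all 4 pools. The amount differed: Ccl5 UMIs per cell went from 35.6 to 239.9 and from 30.9 to 271 between single cells and the largest clones of the Runx1::Runx1t1 pools. In the control pools they went from 27.3 to 117, at 5 to 19 cells, and from 27.7 to 62.8.

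Xcl1 was less frequent in larger clones of the Runx1::Runx1t1 pools. Its share was 34.4%, 31.6%, 20.4% and 12.8% in Runx1::Runx1t1 replicate 1 and 38.4%, 22.3%, 12.9% and 6.36% in replicate 2. It was 33.3%, 37.5% and 32.6% in control replicate 1 and 42.3%, 63.3%, 53.7% and 65.2% in control replicate 2. The largest clones of the Runx1::Runx1t1 pools lay below the 15.8% and 17.9% of naive-marker T cells of those pools. The difference in slope was itself tested as an interaction of group and clone size, and it did not pass: -1.91 for Xcl1 (log2; edgeR adjusted p = 0.216), 1.2 for Ccl5 (adjusted p = 0.156), 1.23 for Ccl3 (adjusted p = 0.156) and 0.72 for Ccl4 (adjusted p = 0.176). That test called 0.00% of genes by edgeR (2119 at an unadjusted p under 0.05, and 187 by DESeq2).

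**Figure D3:**
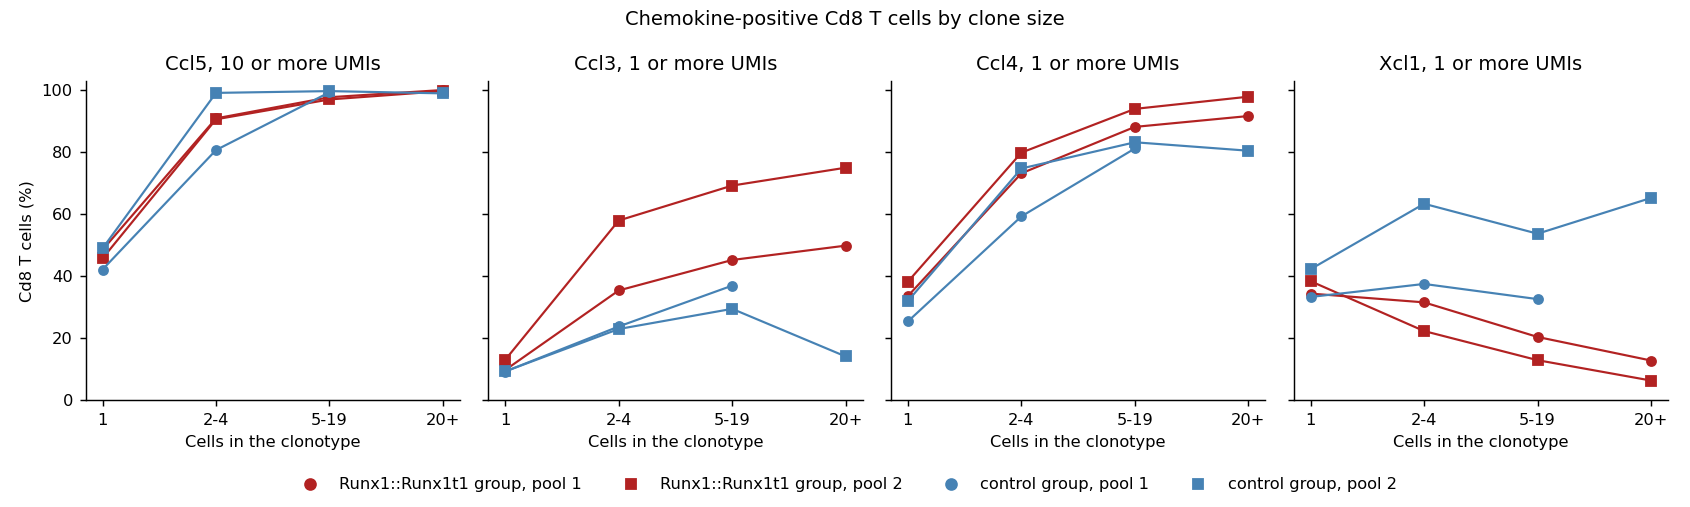
Percent of Cd8 T cells (y axis) with at least 10 Ccl5 UMIs or at least 1 UMI of Ccl3, Ccl4 or Xcl1, by the number of cells in their clonotype (x axis), 1 line a pool. Ccl4 goes from 25.4% to 38.3% of single cells to 80.4% or more in clones of 20 or more, while Xcl1 goes down to 12.8% and 6.36% in the Runx1::Runx1t1 pools and is 65.2% in control replicate 2; control replicate 1 had no Cd8 clone of that size.

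Large clones varied among themselves. The 14 Cd8 clones of 20 or more cells in Runx1::Runx1t1 replicate 1 had Ccl3 in 13.6% to 82.0% of their cells (median 45.2%) and Xcl1 in 0 to 52.4% (median 12.9%). The 15 clones of replicate 2 had Ccl3 in 43.7% to 92.0% (median 81.2%), Xcl1 in 0 to 30.0% (median 5.43%) and 70.0 to 378 Ccl5 UMIs per cell. The largest of them, with 1091 cells, had Ccl3 in 78.3%, Ccl4 in 98.9%, Xcl1 in 2.84% and 272 Ccl5 UMIs per cell. The 4 clones of control replicate 2 had Ccl3 in 9.09% to 20% (median 11.6%), Xcl1 in 40.9% to 77.3% (median 72.1%) and 53.1 to 72.4 Ccl5 UMIs per cell. Ccl4 was in 72.7% to 100% of the cells of every one of these clones.

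Expanded Cd4 T cells were higher in Ccl5 by 1.97 ± 0.43 (log2, SE; edgeR adjusted p = 0.0306), 1 of the 5 chemokines where 8.29% of genes were called. This call was lost without either Runx1::Runx1t1 pool (1.53, adjusted p = 0.0875, and 1.60, adjusted p = 0.0753). Ccl3 (2.33 ± 0.75, adjusted p = 0.110) and Ccl4 (2.14 ± 0.85, adjusted p = 0.182) did not pass, and both passed without control replicate 1 (3.21, adjusted p = 0.00395, and 3.05, adjusted p = 0.0161). Xcl1 was 0.96 lower (-0.96 ± 0.29, adjusted p = 0.0925) and passed without control replicate 2 (-1.39, adjusted p = 0.00260). Ccl1 was lower too (-2.03 ± 0.63, adjusted p = 0.0991) without passing.

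In the Runx1::Runx1t1 pools Ccl3 was in 3.19% and 6.06% of single Cd4 T cells and 52.3% and 49.8% of those in clones of 20 or more. Ccl4 was in 7.77% and 12.8% against 71.3% and 73.4%, and Ccl5 went from 11.6 to 188 and from 14.6 to 161 UMIs per cell. The single cells lay near or below the naive-marker T cells in Ccl3 and Ccl4. Of the 9 and 12 Cd4 clones of that size, Ccl3 was in 2.44% to 80.8% and 15.4% to 100% of cells. Each control pool had 1 large Cd4 clone, of 30 and 15 gated cells, with neither Ccl3 nor Ccl4 in any cell, which allows shares of up to 10.0% and 20%. Their Ccl5 was 4.60 and 25.6 UMIs per cell, and the clone of control replicate 2 had Xcl1 in 86.7% of cells.

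Within Cd8 T cells the chemokines came together in the same cells. Ccl4 was in 87.1%, 93.1%, 78.6% and 77.6% of cells with a Ccl3 UMI and in 36.3%, 42.7%, 21.7% and 32.1% of cells without. At least 10 Ccl5 UMIs were in 94.7%, 95.5%, 91.9% and 90.1% of cells with Ccl3 and 50.7%, 50.4%, 38.4% and 49.1% of the others. The overlap of Xcl1 with Ccl3 varied by pool. Xcl1 was in 34.2%, 17.3%, 68.3% and 69.4% of cells with Ccl3 and in 28.5%, 31.4%, 28.1% and 39.1% of those without, so in Runx1::Runx1t1 replicate 2 it was the less frequent among Ccl3 cells. Depth differed with these genes. Cells with Xcl1 were deeper in every pool (medians of 7591 to 10247 UMIs against 6364 to 6862 without). Cells with Ccl3 were shallower than those without in the Runx1::Runx1t1 pools (6823 against 7764 and 6211 against 7714) and deeper in the control pools (7617 against 6709 and 7304 against 6839), and Ccl4 had the same order. The part of depth in these shares was not tested.

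By combination, 10.6%, 29.4%, 2.40% and 2.53% of Cd8 T cells had Ccl3 and Ccl4 without Xcl1, at 235, 277, 127 and 94.9 Ccl5 UMIs per cell. All 3 together were found in 5.30%, 5.34%, 5.81% and 6.13%, and on this measure the pools lay close together. None of the 3 was found in 40.8%, 27.2%, 56.4% and 44.0%, whose Ccl5 was 13.2, 11.4, 7.66 and 8.25 UMIs per cell.

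The main comparison of the study was between the Runx1::Runx1t1 and control groups, and it was made in each T cell class. In Cd8 T cells Ccl5, Ccl3 and Ccl4 were each higher in both Runx1::Runx1t1 pools than in both control pools. The edgeR estimates were 1.34 ± 0.24 for Ccl5 (log2, SE; adjusted p = 0.0839), 1.85 ± 0.44 for Ccl3 (adjusted p = 0.117) and 1.58 ± 0.27 for Ccl4 (adjusted p = 0.0828). Xcl1 was lower without overlap (-0.69 ± 0.21, adjusted p = 0.166), and Ccl1 was too rare to be tested. None of the 4 passed, where the test called 0.00749% of genes, 1 of 13360 (2863 at an unadjusted p under 0.05 and 864 by DESeq2). The Runx1::Runx1t1 pools lay far apart, and leaving out either made Ccl5, Ccl3 and Ccl4 pass: without replicate 1 the values were 1.64 (adjusted p = 4.35e-05), 2.39 (0.000103) and 1.92 (0.000744). Without replicate 2 they were 0.97 (adjusted p = 0.000351), 0.98 (0.00591) and 1.15 (0.00865), and Ccl1 entered the test and passed (6.36, adjusted p = 0.0125), with the lone pool assumed to vary like the control pools.

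The shares gave the same order in Cd8 T cells. Ccl3 was in 18.3%, 37.3%, 10.4% and 11.2% of cells (27.8% ± 13.5 against 10.8% ± 0.513, SD, n = 2), and Ccl4 in 45.6%, 61.5%, 27.6% and 37.2% (53.6% ± 11.2 against 32.4% ± 6.79). Cells with at least 10 Ccl5 UMIs made 63.0% ± 6.02 against 48.9% ± 6.86. Xcl1 was in 29.5%, 26.1%, 32.3% and 42.5% (27.8% ± 2.42 against 37.4% ± 7.22). No group overlapped another in these 4 measures, and the exact permutation p was 0.333 for each. Thinned to 2000 UMIs a cell, Ccl3 was in 17.3% ± 10.0 against 5.50% ± 0.459 and Ccl4 in 39.3% ± 12.6 against 19.7% ± 4.34.

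The Cd8 comparison was repeated within clone sizes. Among single Cd8 T cells, where 5.41% of genes were called, Ccl4 was higher by 0.41 ± 0.08 in the Runx1::Runx1t1 group (log2, SE; edgeR adjusted p = 0.0283), 1 of the 4 tested. That call was lost without either Runx1::Runx1t1 pool (0.40, adjusted p = 0.0931, and 0.43, adjusted p = 0.104). Ccl5 in single cells had an estimate of 0.01 ± 0.10 (adjusted p = 0.950), Ccl3 0.28 ± 0.17 (adjusted p = 0.369) and Xcl1 -0.35 ± 0.20 (adjusted p = 0.330). Among expanded cells the values were 1.18 ± 0.25 for Ccl5 (adjusted p = 0.159), 1.52 ± 0.33 for Ccl3 (adjusted p = 0.159), 1.12 ± 0.17 for Ccl4 (adjusted p = 0.139) and -2.23 ± 0.63 for Xcl1 (adjusted p = 0.189). There 0.00% of genes passed by edgeR, against 2035 at an unadjusted p under 0.05 and 347 by DESeq2. All 4 passed without Runx1::Runx1t1 replicate 1 (Ccl5 1.32, Ccl3 1.92, Ccl4 1.29 and Xcl1 -3.17, the largest adjusted p 0.000123) and without replicate 2 (1.03, 0.99, 0.93 and -1.67, the largest 0.000739), and none without either control pool (adjusted p 0.488 to 0.604). Without cells of clones of 20 or more, a setting added after the data were seen, Ccl5 (0.66, adjusted p = 0.0238) and Ccl4 (0.99, adjusted p = 0.0244) passed in Cd8 T cells as a whole.

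In Cd4 T cells 4 of the 5 chemokines rose in the Runx1::Runx1t1 group, where 1.93% of genes were called (225 of 11636) and 1.27% higher. Ccl5 rose by 2.45 ± 0.12 (log2, SE; edgeR adjusted p = 0.000765), Ccl3 by 3.30 ± 0.43 (adjusted p = 0.0203) and Ccl4 by 3.36 ± 0.21 (adjusted p = 0.00165). Ccl1 rose by 5.30 ± 0.83 (edgeR adjusted p = 0.0354), and Xcl1 was lower without passing (-0.97 ± 0.28, adjusted p = 0.133). Ccl3 was in 13.1%, 20.5%, 3.53% and 2.87% of Cd4 T cells (16.8% ± 5.23 against 3.20% ± 0.463, SD, n = 2) and Ccl4 in 21.8%, 33.0%, 7.14% and 7.78% (27.4% ± 7.95 against 7.46% ± 0.454). The control values lay near those of the naive-marker T cells of their pools for Ccl3 (2.88% and 3.12%) and below them for Ccl4 (10.2% and 12.4%), at a lower depth. Xcl1 was in 15.1%, 13.1%, 19.7% and 25.5%, below the naive-marker T cells of the same pool in the Runx1::Runx1t1 group (15.8% and 17.9%) and above them in the control group (14.1% and 17.7%).

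Some of these calls were lost when clones were given less weight. With each clonotype counted once Ccl5 kept its call, whereas Ccl3 (1.62, edgeR adjusted p = 0.414), Ccl4 (1.54, adjusted p = 0.164) and Ccl1 (5.80, adjusted p = 0.0943) did not pass. Without clones of 20 or more Ccl3 did not pass either (2.59, adjusted p = 0.0811). Xcl1 passed without control replicate 1 (-1.35, adjusted p = 0.0211).

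The Cd4 T cells with Gzmk, a granzyme of effector memory cells, had the higher levels of these chemokines. They numbered 689, 997, 66 and 102, and had 146, 144.5, 33.6 and 33 Ccl5 UMIs per cell, against 13, 9.17, 7.68 and 6.98 in cells without Gzmk. Ccl3 was in 40.5%, 43.6%, 15.2% and 8.82% of them and Ccl4 in 57.2%, 65%, 22.7% and 16.7%. Without Gzmk the shares were 3.16%, 4.34%, 2.83% and 2.25% for Ccl3 and 8.94%, 10.7%, 6.20% and 6.86% for Ccl4, at or below naive-marker T cells in every pool. Cd4 T cells with Foxp3, the regulatory T cell factor, had 6.39, 9.40, 3.85 and 4.30 Ccl5 UMIs per cell and Ccl4 in 7.73%, 9.49%, 2.29% and 2.74%.

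Cd8 T cells were divided by Gzmk in the same way, into 1710, 3247, 525 and 1004 cells with it. These had 194, 243, 108 and 77.0 Ccl5 UMIs per cell, Ccl3 in 46.6%, 67.4%, 31.2% and 22.5% and Ccl4 in 85.4%, 93.1%, 76.2% and 77.0%. Xcl1 was in 25.4%, 14.6%, 49.0% and 66.5% of them, so that among cells with Gzmk the control pools had more Xcl1 and less of the other 3. Cd8 T cells without Gzmk had 33.1, 26.2, 25.3 and 26.8 Ccl5 UMIs per cell, Ccl3 in 8.84%, 12.5%, 8.45% and 9.20% and Xcl1 in 30.9%, 35.7%, 30.7% and 38.4%, where the groups overlapped on Ccl3 and Xcl1. Cd8 T cells with Pdcd1, an inhibitory receptor of stimulated T cells, numbered 604, 2170, 114 and 118 and had 236, 276, 92.4 and 75.5 Ccl5 UMIs per cell, with Ccl3 in 56.3%, 73.3%, 36.8% and 28.8% and Xcl1 in 18.7%, 7.74%, 38.6% and 45.8%.

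In co-receptor-negative T cells Xcl1 fell, and the estimates of Ccl3, Ccl4 and Ccl5 lay below 0 without passing the test. The edgeR estimate for Xcl1 was -0.55 ± 0.12 (log2, SE; adjusted p = 0.0467), 1 of the 5 chemokines where 6.31% of genes were called, 2.23% lower. Ccl5 was -0.38 ± 0.15 (adjusted p = 0.180), Ccl3 -0.41 ± 0.12 (adjusted p = 0.108), Ccl4 -0.07 ± 0.10 (adjusted p = 0.742) and Ccl1 2.27 ± 0.68 (adjusted p = 0.106). With each clonotype counted once Ccl5 (-0.69, adjusted p = 0.0163), Ccl3 (-0.76, adjusted p = 0.0160) and Ccl4 (-0.57, adjusted p = 0.00564) passed. Ccl3 also passed without clones of 20 or more (-0.66, adjusted p = 0.0342) and without Runx1::Runx1t1 replicate 2 (-0.55, adjusted p = 0.00402), and Ccl5 without replicate 1 (-0.63, adjusted p = 4.29e-05). Ccl1 passed with paired chains (2.19, adjusted p = 0.0426) and without Runx1::Runx1t1 replicate 2 (2.90, adjusted p = 0.00167). Xcl1 was in 39.7%, 30.6%, 65.3% and 66.0% of cells (35.2% ± 6.45 against 65.6% ± 0.497, SD, n = 2), the widest gap of any share in this class. Ccl3 was in 9.08%, 11.4%, 16.5% and 14.6% and Ccl4 in 23.7%, 25.4%, 30.2% and 33.5%. The Ccl5 share overlapped (82.6% ± 3.31 against 82.8% ± 0.703), while cells with at least 10 Ccl5 UMIs made 41.1% ± 6.67 against 64.8% ± 0.725.

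The Xcl1 call was narrow. It was lost without control replicate 2 (-0.37, edgeR adjusted p = 0.161), with doublets kept (-0.53, adjusted p = 0.0578), among cells of at least 5000 UMIs (-0.26, adjusted p = 0.271), with each clonotype once (-0.33, adjusted p = 0.0898) and without clones of 20 or more (-0.51, adjusted p = 0.0608). Without the cells carrying mast cell, basophil, neutrophil or monocyte markers it held (-0.58, adjusted p = 0.0197).

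Klrb1c (NK1.1), a surface receptor of NK and NKT cells, divided this class. It was found in 27.4%, 16.9%, 47.4% and 46.9% of co-receptor-negative T cells. Of those with Klrb1c, 87.5%, 93.8%, 92.2% and 93.4% had Xcl1, at 12.8, 17.5, 10.3 and 13.3 UMIs per cell, and the groups overlapped on both measures. Of those without it, 21.7%, 17.8%, 41.0% and 41.8% had Xcl1, at 1.43, 1.57, 2.23 and 3.21 UMIs per cell, and the groups did not overlap. Cd8 T cells as a whole had Xcl1 in 29.5%, 26.1%, 32.3% and 42.5%, at 1.99, 2.13, 2.21 and 3.50 UMIs per cell. In UMIs per cell the co-receptor-negative cells without Klrb1c thus lay near or below Cd8 T cells of their pool, which was not tested. By edgeR the group difference in Xcl1 was 0.14 with Klrb1c (adjusted p = 0.654) and -0.68 without (adjusted p = 0.0308), both settings added after the data were seen. Ccl4 without Klrb1c was higher in the Runx1::Runx1t1 group (0.37, adjusted p = 0.0403). Counts of co-receptor-negative T cells with Klrb1c were 824, 323, 2237 and 2083, so the groups differed in how many such cells were sorted.

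**Figure D4:**
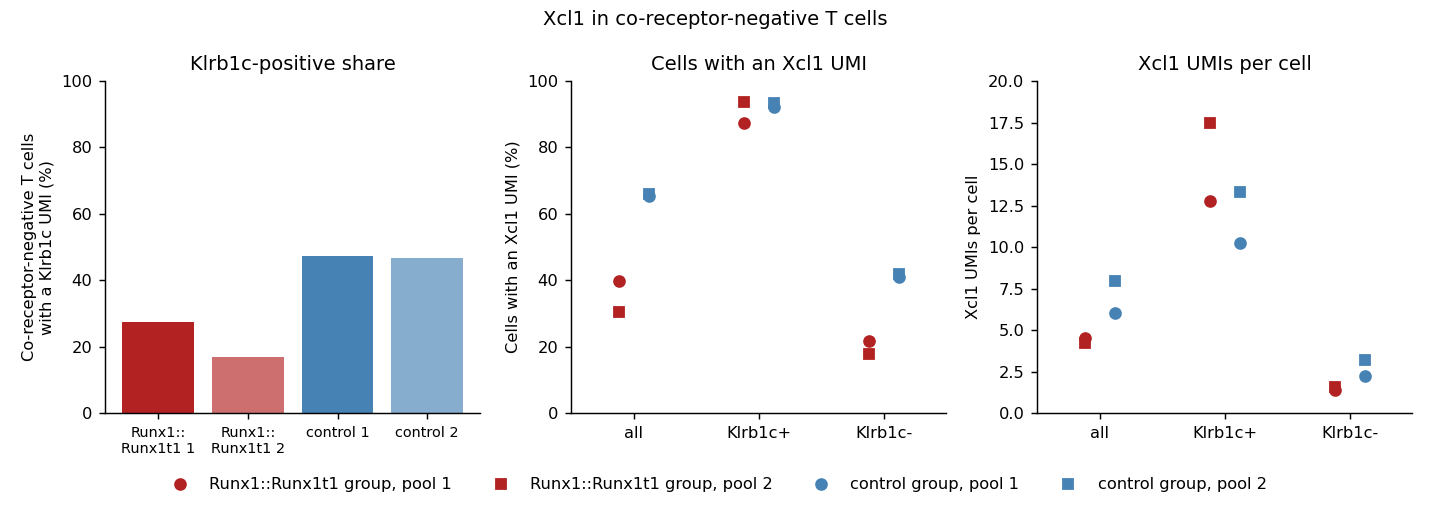
Co-receptor-negative T cells: percent with a Klrb1c UMI, percent with an Xcl1 UMI and Xcl1 UMIs per cell (y axes). The Klrb1c panel has a bar for each pool (x axis). The Xcl1 panels show all cells and cells with and without Klrb1c (x axis), and their points are pools. With Klrb1c the Xcl1 share is 87.5% to 93.8% in all 4 pools, and without it 21.7% and 17.8% in the Runx1::Runx1t1 pools against 41.0% and 41.8% in the control pools.

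Cells with the TRAV11 and TRAJ18 segments, the alpha chain of invariant NKT cells, were picked out by their receptor within the same class. Among 293, 115, 388 and 364 of them Xcl1 was found in 87.4%, 86.1%, 87.6% and 91.8%, and Ccl3 in 4.44%, 10.4%, 2.84% and 2.47%. The Xcl1 shares of the groups overlapped, and Ccl3 was near or below its share in naive-marker T cells but for Runx1::Runx1t1 replicate 2.

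Cells with Trdc, the constant segment of the delta chain, and without paired alpha and beta chains numbered 395, 246, 1067 and 972. Xcl1 was in 52.2%, 42.7%, 62.2% and 65.7% of them, at 6.12, 6.07, 5.56 and 8.38 UMIs per cell, and Ccl5 reached 45.4, 30.6, 50.6 and 44.7 UMIs per cell. Co-receptor-negative T cells with paired chains other than the invariant one, 1407, 803, 2136 and 2089 in number, had Xcl1 in 34.5%, 32.1%, 72.5% and 71.4%. The group difference in the Xcl1 share was thus widest in these cells, and those with the delta chain or the invariant chain were more alike between the groups.

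The group differences were set against each other between classes in a fit of all classes with the pool as a block. The difference in co-receptor-negative T cells was lower than that in Cd8 T cells by 1.67 ± 0.28 for Ccl5 (log2 -1.67; edgeR adjusted p = 0.0204), 2.07 ± 0.38 for Ccl3 (-2.07; adjusted p = 0.0266) and 1.58 ± 0.29 for Ccl4 (-1.58; adjusted p = 0.0270). These were 3 of the 5, where 2.78% of genes were called and 1.21% lower. By DESeq2 1 of them was called (Ccl5 had adjusted p = 0.105 and Ccl3 0.0820), and without the pool block none. Against Cd4 T cells it was lower by 2.82 ± 0.28 for Ccl5 (-2.82; adjusted p = 0.00370), 3.67 ± 0.44 for Ccl3 (-3.67; adjusted p = 0.00786) and 3.38 ± 0.32 for Ccl4 (-3.38; adjusted p = 0.00269), where 1.53% of genes were called and 0.585% lower. For Xcl1 neither passed (0.11, adjusted p = 0.800, and 0.37, adjusted p = 0.313). Without either control pool none of the 6 passed (adjusted p 0.0675 to 0.350), with estimates of -1.50 to -4.51.

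Cd8 and Cd4 T cells were not shown to differ in their group differences: the Cd8 value minus the Cd4 value was -1.14 for Ccl5 (edgeR adjusted p = 0.165), -1.60 for Ccl3 (adjusted p = 0.221), -1.80 ± 0.32 for Ccl4 (adjusted p = 0.0526) and 0.27 for Xcl1 (adjusted p = 0.672). None passed, where 0.466% of genes did. Without cells carrying mast cell, basophil, neutrophil or monocyte markers Ccl4 passed (-1.99, adjusted p = 0.0133).

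**Figure D5:**
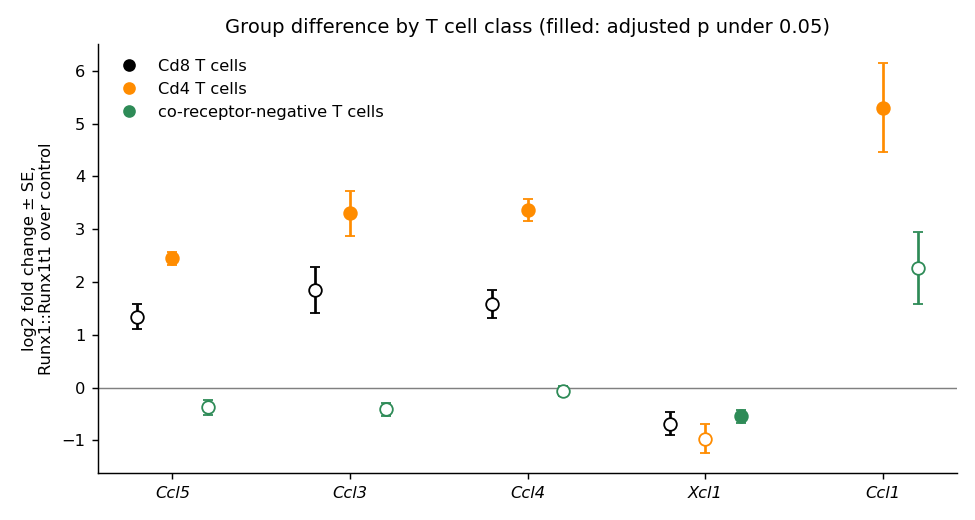
Log2 fold change, Runx1::Runx1t1 against control, of each chemokine (x axis groups) by T cell class, with bars of 1 SE from edgeR; filled points have an adjusted p under 0.05. Ccl5, Ccl3, Ccl4 and Ccl1 are filled in Cd4 T cells (2.45 to 5.30), none is filled in Cd8 T cells, and Xcl1 alone is filled, below 0, in co-receptor-negative T cells (-0.55).

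Ccl1 was a gene of few cells. Cd4 T cells held 171, 531, 4 and 3 Ccl1 UMIs, which is 11.6, 35.6, 0.667 and 0.531 CPM. They lay in 53, 21, 3 and 2 cells, or 2.05% (Wilson 95% interval 1.57% to 2.67%), 0.866% (0.567% to 1.32%), 0.258% (0.0878% to 0.756%) and 0.185% (0.0508% to 0.673%) of Cd4 T cells. In Runx1::Runx1t1 replicate 2 a single cell had 466 of the 531 UMIs. Without the cell with the most Ccl1 of each pool, an alternative added after the data were seen, the group estimate was 4.75 (edgeR adjusted p = 0.0299).

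With counts this low the call depended on the setting. It was lost with paired chains only (5.33, edgeR adjusted p = 0.0540) and without either control pool (5.45, adjusted p = 0.104, and 5.19, adjusted p = 0.0736). As a ratio of CPM, the 702 Ccl1 UMIs of the Runx1::Runx1t1 group stood at 39.3 times the 7 of the control group (95% exact interval 19 to 98.2, counting error only). Without the top cell of each pool it was 27.1 times (9.13 to 132), with 207 UMIs against 3. Both intervals treat UMIs as independent, although 466 of the 702 lay in 1 cell, and leave out the spread between cells and pools.

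Cd8 T cells held 61, 6, 1 and 0 Ccl1 UMIs in 12, 4, 1 and 0 cells. The count of 0 in control replicate 2 allows up to 0.0605 CPM. Co-receptor-negative T cells held 45, 7, 8 and 12 UMIs in 16, 6, 3 and 9 cells. Ccl1 was lower in Cd8 than in Cd4 T cells (log2 -5.05 ± 0.90, edgeR adjusted p = 0.00125) and lower in co-receptor-negative than in Cd4 T cells (-3.01 ± 0.87, adjusted p = 0.0266). The latter call was lost with DESeq2 (-2.25, adjusted p = 0.114), with paired chains (-2.59, adjusted p = 0.0580), without Runx1::Runx1t1 replicate 2 (-1.48, adjusted p = 0.0561) and without control replicate 1 (-3.25, adjusted p = 0.0521).

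The Ccl1 cells were spread over many clonotypes. Of the 53 and 21 Ccl1 cells among Cd4 T cells of the Runx1::Runx1t1 pools, 40 and 18 had a clonotype, in 33 and 17 different clonotypes with at most 2 Ccl1 cells each. Of these, 20 of 40 and 11 of 18 belonged to expanded clonotypes. Gata3, the type 2 helper factor, was in 81.1% and 76.2% of Ccl1 cells and 40.4% and 39.6% of the other Cd4 T cells. Il4 was in 39.6% and 9.52% against 4.34% and 2.41%, and Cd40lg, a costimulatory ligand of activated helper cells, in 60.4% and 57.1% against 31.9% and 32.1%. Foxp3 was in 24.5% and 23.8% against 22.4% and 19.5%, much the same share. These are descriptions of few cells and were not tested.

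Receptors of these chemokines were measured in the same cells. Ccr8, the receptor of Ccl1, was at 119.9, 105, 82.8 and 47.6 CPM in Cd4 T cells, 44.6, 41.7, 9.78 and 8.16 CPM in co-receptor-negative T cells and 3.18, 5.24, 1.78 and 0.584 CPM in Cd8 T cells. Ccr3 (2.64), also a receptor of basophils and eosinophils, and Ccr8 (2.20) rose in co-receptor-negative T cells of the Runx1::Runx1t1 group, 2 of 5 receptors tested where 6.31% of genes were called, beside the rise of mast cell and basophil markers given above. Their part in the result was not tested. Xcr1 had 0 to 4 UMIs in a pool and class, and Ackr2 had none.

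In expanded Cd8 T cells, where 23.1% of all genes were called and 11.5% higher, the chemokines stood beside genes of killing. Of 12 granule genes tested 9 were higher and none lower (median log2 fold change 1.44, against about 0 for all genes), among them Gzma (4.28), Gzmk (3.75) and Gzmb (3.15), which encode granzymes, and Fasl (1.83), a death ligand. Of 27 transcription factors 11 were higher and 2 lower, among them Prdm1 (2.85), Zeb2 (2.74) and Zbtb32 (2.14) higher and Klf2 (-1.94), a factor of quiescent cells, lower. Of 18 genes of recent T cell receptor stimulation 2 were higher, Ifng (1.99) and Nr4a2 (1.64), and 2 lower, Jun (-1.13) and Fos (-0.50). The counts of this list are near the shares of all genes. The receptor Ccr3 was higher (1.94). None of 8 other chemokines tested was called.

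In Cd4 T cells 1.93% of all genes were called between the groups, and 1.27% were higher in the Runx1::Runx1t1 group. Of 12 granule genes 4 were higher in that group and none lower, namely Gzmk (3.33), Nkg7 (1.46), Cst7 (0.96) and Fasl (0.54). Of 27 transcription factors 6 were higher and 1 lower, among them Eomes (2.69), Prdm1 (1.49) and Bhlhe40 (1.01) higher and Zbtb32 (-1.0) lower. Tnfrsf9 (0.76), a costimulatory receptor, was the 1 of 18 stimulation genes called, and none of 8 other chemokines was. In Cd8 T cells as a whole no gene of these lists was called between the groups, where 0.00749% of all genes were. Co-receptor-negative T cells against Cd8 T cells, the comparison in which Xcl1 was higher, had 13 of 18 stimulation genes higher and none lower, among them Spry2 (1.66) and Il2 (1.0), and Zbtb16 (3.43), the factor of NKT cells, was among 11 of 27 transcription factors that were higher, where 33.0% of all genes were called.

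Other chemokines differed between the groups in co-receptor-negative T cells, where 5 of 14 tested were higher and 2 lower in the Runx1::Runx1t1 group. Of all genes 6.31% were called in this comparison, 2.23% lower. Ccl8 (7.99), Cxcl3 (4.85) and Ccl24 (4.42) were among the higher ones, and Ccl6 (-3.57) and Ccl9 (-2.61), whose genes lie between Ccl5 and Ccl3, were lower. These are chemokines of myeloid cells, and the mast cell and basophil markers were higher and the neutrophil and monocyte markers lower in the same sums. Their part in the result was not tested.

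The genes whose pattern was most like each chemokine were found over 24 sums of pool, class and clone size, among 12341 genes. The correlations describe sums that share libraries and depth and carry no p. Nearest to Ccl5 were Nkg7 (r = 0.954), Asap2 (0.953) and Ccl4 (0.952), and nearest to Ccl4 were Ccl5 (0.952), Nkg7 (0.944) and Gm33782 (0.931). Nearest to Ccl3 were Ccl4 (0.931), Ccl5 (0.911) and Baiap3 (0.900). Xcl1 was most like Gpc1 (0.922), Vars (0.913) and Arl4d (0.908), and Ccl1 most like Fam107b (0.827), Xbp1 (0.811) and Got1 (0.785). Between Xcl1 and the others r was -0.27 for Ccl5, -0.39 for Ccl3, -0.22 for Ccl4 and -0.33 for Ccl1, so Xcl1 did not follow the other 4. Nor did Ccl1 follow Ccl5 (r = -0.19), Ccl3 (-0.008) or Ccl4 (-0.18).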

How the data were processed

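Bone marrow T cells of 4 pools were profiled with 10x 5′ single-cell RNA and TCR sequencing. The deposited matrices hold UMI counts per gene and barcode, made by the authors with Cell Ranger 6.1.2 on GRCm38, per the labels, and the annotation release is not given in the sources used here. The deposited contig tables hold UMI counts per TCR chain, with read counts beside them. No deposited value was normalized. Cells with under 200 genes or over 15% mitochondrial UMIs were removed, and so were the 5% of cells of each library with the highest Scrublet score (scanpy 1.11.5), since the automatic threshold did not work in every library. No ambient RNA correction was made.

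Classes were gated as given above. The gate on absent UMIs misplaces cells whose co-receptor message was not captured, most of all Cd4 T cells. A clonotype was the most abundant TRA and TRB junction pair within a pool. UMIs were summed per pool and class (at least 20 cells) and tested with edgeR 4.0.16 in R 4.3.3 (TMM, filterByExpr, quasi-likelihood, Benjamini-Hochberg over all genes tested, threshold 0.05), with the pool as a block in comparisons of classes and clone sizes. Shares and UMIs per positive cell were compared with exact permutation tests in scipy 1.17.1. Wilson 95% intervals reached at most 2.98 percentage points to either side of a share, and they and the floor of 3 counts cover counting error only. Nothing in the labels says whether the pools were processed separately throughout, so p-values measure the spread between these pools. The edgeR step was checked on simulated counts.

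Gene positions are from the GENCODE M21 annotation and promoters from RefSeq. The 5 chemokines are always named, for each the 3 genes of highest correlation (log2 CPM, prior count 2, at least 100 UMIs), and from each gene list 2 to 4 called genes of the largest fold change. The 5 genes and the lists were chosen with earlier results of these data known. The Gzmk, Pdcd1, Foxp3, Klrb1c, TRAV11 and Ccl1 cell sets, the Gata3, Il4 and Cd40lg shares and the definition of naive-marker T cells were chosen after values were seen. Some genes of the lists are not reported here. Alternatives were DESeq2 1.42.0, other size factors, no filter on low counts, other cell filters and gates, each clonotype once, thinning to 2000 UMIs, with or without a block, and each pool left out.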

Additional observations from a re-analysis of the deposited data

Results flagged for a closer look

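In 6 cases the group difference of a chemokine differed between T cell classes by a test of that difference itself. Between co-receptor-negative and Cd8 T cells it differed for Ccl5 (-1.67 on the log2 scale, edgeR adjusted p = 0.0204), Ccl3 (-2.07, adjusted p = 0.0266) and Ccl4 (-1.58, adjusted p = 0.0270). Between co-receptor-negative and Cd4 T cells it differed for Ccl5 (-2.82, adjusted p = 0.00370), Ccl3 (-3.67, adjusted p = 0.00786) and Ccl4 (-3.38, adjusted p = 0.00269). By DESeq2 1 of the first 3 was called and without the pool block none, and without either control pool none of the 6 passed. Klrb1c, found in 27.4%, 16.9%, 47.4% and 46.9% of co-receptor-negative T cells, moved with the groups in the same class, and its part in these differences was not tested. No group here had 4 or more samples, so no pool was examined as an outlier.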

How the results depend on the processing

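Of 1001 log2 fold changes recomputed under the alternatives, 845 stayed on the same side of the threshold, 110 newly passed, 44 no longer passed and 2 reversed. A reversal was counted only where the main or the alternative value passed. A change of sign between values that did not pass is therefore held within the 845. The 2 reversed were, in co-receptor-negative T cells, Ccl4 without Klrb1c (0.37) and Xcl1 with Klrb1c (0.14). Of 120 share differences 106 moved by less than the spread between pools, and of 112 differences in UMIs per positive cell 94 did. In co-receptor-negative T cells UMIs per positive cell turned with each clonotype once for Ccl3 (-0.0613) and Ccl4 (-0.209), and the Ccl5 share without Runx1::Runx1t1 replicate 1 (2.18) or control replicate 1 (0.333). Each group had 2 pools, and Ccl1 and control Cd4 T cells (1162 and 1079) rest on few counts or cells. With every cell thinned to the same UMI total, the group differences in the Ccl5, Ccl4 and Xcl1 shares kept their sign in every T cell class. The Ccl5 share of co-receptor-negative T cells, which overlapped before thinning, then did not overlap (72.7% against 80.5%). Among deeper cells the Xcl1 calls between Cd8 and Cd4 T cells, and between the groups in co-receptor-negative T cells, were lost, as given above. The settings on large clones, on Klrb1c, on markers of other cell types and on the top Ccl1 cell were chosen after seeing the data.

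The number of the 5 chemokines called moved as follows where it moved most, and the cause was not tested beyond the change of setting itself. Cd8 against Cd4 T cells went from 2 to 1 without the block, to 1 among cells of at least 5000 UMIs, to 3 without the filter on low counts and with paired chains, and to 4 with each clonotype once. Co-receptor-negative against Cd8 T cells went from 1 to 2 by DESeq2. Co-receptor-negative against Cd4 T cells went from 2 to 1 by DESeq2, without the block and with paired chains, and to 4 with each clonotype once. Expanded Cd4 T cells went from 1 to 5 without the filter on low counts, 3 among cells of at least 5000 UMIs, 3 with at least 2 co-receptor UMIs and 5 with each clonotype once. Between the groups, Cd8 T cells went from 0 to 2 by DESeq2, 3 without the filter, 1 with each clonotype once and 2 without clones of 20 or more. Cd4 T cells went from 4 to 1 with each clonotype once and to 3 with paired chains and without clones of 20 or more. Co-receptor-negative T cells went from 1 to 0 with doublets kept, among cells of at least 5000 UMIs and with Klrb1c, to 2 with paired chains and without Klrb1c, and to 3 with each clonotype once. Single Cd8 T cells went from 1 to 3 without the filter, and expanded ones from 0 to 3 by DESeq2, 4 without the filter and 3 with each clonotype once. The Cd8 minus Cd4 interaction went from 0 to 3 without the filter and to 1 by DESeq2, with stricter cell limits (500 genes, 5% mitochondrial), at least 5000 UMIs, at least 2 co-receptor UMIs, paired chains, each clonotype once and without other-cell markers. The co-receptor-negative minus Cd8 interaction went from 3 to 1 by DESeq2 and to 0 without the block. The interaction with clone size went from 0 to 2 by DESeq2, 4 without the filter and 4 with each clonotype once.

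With 1 pool left out, the number called ran from 2 to 4 for Cd8 against Cd4, 1 to 2 for co-receptor-negative against either class, 2 to 3 and 0 to 3 for expanded Cd8 and Cd4 T cells, 0 to 4, 3 to 4 and 0 to 3 between the groups in Cd8, Cd4 and co-receptor-negative T cells, and 0 to 3 and 0 to 4 in single and expanded Cd8 T cells. For the interactions it ran from 0 to 3, 0 to 3, 0 to 4 and 0 to 4. Where 1 pool was left in a group, it was assumed to vary like the others.

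The replicate numbers gave only 2 pairs and no shared batch, so they were not taken as pairing. Deviations of same-numbered pools correlated at 0.259 in Cd8, 0.207 in Cd4 and 0.298 in co-receptor-negative T cells. With a replicate block, 3 chemokines passed between the groups in Cd8 T cells (Ccl5 1.3, adjusted p = 0.0377, Ccl3 1.69, adjusted p = 0.0401, and Ccl4 1.54, adjusted p = 0.00954), 4 in co-receptor-negative T cells and 2 in single Cd8 T cells, and the genes called went from 1 to 902, from 225 to 520 in Cd4 T cells, from 808 to 2068 in co-receptor-negative T cells and from 678 to 2253 in single Cd8 T cells.

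Counts over all genes moved likewise. In Cd8 T cells the 1 gene called between the groups became 864 by DESeq2, 799 without the filter, 531 with each clonotype once, 496 without clones of 20 or more, 1602 without Runx1::Runx1t1 replicate 1 and 298 without replicate 2, and 3 to 18 under the other settings that moved it. In Cd4 T cells the 225 became 84 without Runx1::Runx1t1 replicate 2, 118 without replicate 1, 149 without control replicate 1, 90 with each clonotype once and 101 without clones of 20 or more. In expanded Cd8 T cells the 0 genes became 347 by DESeq2, 1256 without the filter, 214 with each clonotype once, 2273 without Runx1::Runx1t1 replicate 1 and 549 without replicate 2.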

Other observations

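Barcodes outside the 3 classes also held these chemokines. Of barcodes without a Cd3 UMI, those with mast cell and basophil markers (202, 159, 13 and 53, in the order Runx1::Runx1t1 replicate 1, replicate 2, control replicate 1, replicate 2) had Ccl4 in 25.2%, 34.6%, 46.2% and 54.7%, Ccl3 in 0.990%, 1.89%, 30.8% and 32.1%, and Xcl1 in 3.47%, 1.89%, 7.69% and 3.77%. Those with neutrophil and monocyte markers (11, 10, 156 and 118) had Ccl3 in 27.3%, 50%, 60.3% and 57.6%, at 3, 3.6, 8.54 and 4.95 UMIs per cell, and Ccl4 in 0, 20%, 23.1% and 55.1%. In both kinds of barcode the control pools had the larger Ccl3 and Ccl4 shares, the reverse of Cd8 and Cd4 T cells. B cell barcodes of the control pools had Ccl3 in 24.6% and 49.0% and Ccl4 in 19.7% and 72.5%, against 8% and 0 and 12% and 40.0% in the Runx1::Runx1t1 pools. T cells with UMIs of both co-receptors had Ccl5 in 82.7%, 91.1%, 67.3% and 61.8% and Ccl1 in 1.69%, 1.39%, 0.495% and 0.483%.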
